A study of Macaca mulatta with 20 samples.

Results

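Transcripts of 8 genes of the S100 family were followed in whole blood of rhesus macaques (Macaca mulatta) before and after irradiation of the chest: the calgranulins S100A8, S100A9 and S100A12, and S100A4, S100A6, S100A10, S100A11 and S100P. A gene entered through the probes that carry its name in the array files and were well above background on at least 5 of the 20 arrays. All 10 probes of the 8 genes passed that filter, among 15929 gene names with a probe tested. Each animal received 10 Gy of X-rays to the thorax, from the top of the lungs to just below the breastbone, and the 4 groups of 5 arrays held blood drawn before irradiation (3 days earlier, per the study's methods) and on days 2, 5 and 30 after it. Per the study's methods, blood was drawn from 8 animals and 5 samples per group went on arrays, so the arrays need not hold all 8. The methods describe the animals of the whole study as males of Chinese origin about 4 to 9 years old. There were no unirradiated animals followed over the same days, so time after irradiation and repeated handling and bleeding cannot be told apart. One array held RNA pooled from 2 animals, and the labels do not say which.

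S100 proteins are small calcium-binding proteins with a pair of EF-hand loops, and most act as dimers. S100A8 and S100A9 pair to form calprotectin, which fills much of the cytosol of neutrophils and is also carried by monocytes. S100A12 is made mainly by neutrophils. Released from stressed or dying cells, the calgranulins act as alarm signals on TLR4 and on RAGE (the AGER product). Their transcripts are a usual marker of myeloid cells and of inflammation in blood.

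The arrays carry 60-base probes designed on human transcripts, and the annotation places 7 of the genes on human chromosome 1 and S100P on chromosome 4 (hg19). The probe of S100A9 spans chr1:153330874-153333143 on the plus strand and that of S100A6 chr1:153507255-153507685 on the minus strand. Both stretches are longer than the probes, so on the human genome these probes cross an intron. How well the human probes match the macaque transcripts was not tested. The files give no exon or UTR label for the others. The S100A9 probe is shown because it gave some of the largest changes, and probes of S100A12 (chr1:153346346-153346405, minus strand) and S100A11 (chr1:152005219-152005278, minus strand) are shown because both lie over the code for a calcium-binding loop. Capitals mark the bases that S100A12 and S100A11 share when laid side by side without gaps, 24 of 59. The codes for the calcium-binding loops do not line up in this overlap. The capitals therefore do not mark the bases that the loops have in common.
S100A9: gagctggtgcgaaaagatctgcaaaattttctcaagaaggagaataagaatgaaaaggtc
S100A12: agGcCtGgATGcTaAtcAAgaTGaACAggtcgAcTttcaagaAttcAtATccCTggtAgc
S100A11: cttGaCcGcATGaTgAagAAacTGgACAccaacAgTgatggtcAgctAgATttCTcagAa
Over all 43 pairs of probes of different S100 genes here, the longest run of bases shared was 9. In the macaque annotation (T2T-MMU8v2.0), used here only for names and order, S100A8, S100A12 and S100A9 are direct neighbours among the protein-coding genes of chromosome 1, S100A4 and S100A6 have S100A5 between them, and S100P lies on chromosome 5.

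Levels are given as scaled log2 signals: log2 of the scanner's processed intensity minus the 75th percentile of the same array, so that 1 unit is a factor of 2 relative to that array. Levels of different probes are not comparable. Between 50.9% and 67.3% of the spots on an array were well above background, the lowest on a pre-irradiation array and the highest on a day 5 array. Of the 10 S100 probes, 9 were well above background on all 20 arrays and the second S100A12 probe on 19, and none was saturated. Each of the 5 slides held 1 array of every group, always at the same place, so position on the slide and group cannot be told apart. Changes come from a fit (limma) paired by the replicate number in the labels, as the study's methods paired by animal. At the threshold of those methods, an unadjusted p under 0.005 with a false discovery rate under 10%, none of the 8 genes was called on any day. That rule called 0.0551% of the 19961 probes on day 2, 0% on day 5 and 0.02% on day 30 against pre-irradiation, and 0% for day 5 against day 2, 0.0551% for day 30 against day 2 and 0% for day 30 against day 5. On day 30, however, S100A8, S100A12 and S100P were called after normexp background correction (limma adjusted p = 0.074, 0.069 and 0.075) and where the fit was restricted to probes detected on every array (0.098, 0.089 and just under 0.1). In the authors' deposited log2 values they were called together with S100A9 (0.055, 0.047, 0.057 and 0.080), and S100P was also called on day 2 (0.081). S100P was called on day 30 as well with all 20 arrays in one fit (0.099). The adjustment ran over 15339 probes where detection on every array was required and over 5653 in the deposited values. Adjusted p-values from those 2 are therefore not comparable with those over 19961 probes. The share of all probes called in these alternative fits is not given here. The counts below use an unadjusted p under 0.05, and the 3 comparisons with pre-irradiation share the same 5 control arrays. For those 3 comparisons the share of all probes is given for higher ones only.

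S100 transcripts were mostly higher after irradiation. On day 2, 6 of the 8 genes were past the unadjusted threshold, all higher, where 8.91% of all probes were. On day 5 it was 4 of 8 against 7.2% of probes, and on day 30 it was 5 of 8 against 8.58%. The median change over the 8 genes was 0.85 on day 2, 0.35 on day 5 and 1.01 on day 30 (log2), while the median over all probes stayed between -0.02 and 0.02. After normexp correction, which put the median of all probes at 0.12 on day 2, S100A12 was the 1 gene past the threshold on that day, and S100A4, S100A6 and S100A10 were at -0.44, -0.020 and -0.49. The methods' paired t-test on the same values passed 3, 2 and 2 of the 8 genes at an unadjusted p under 0.05.

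**Figure D1:**
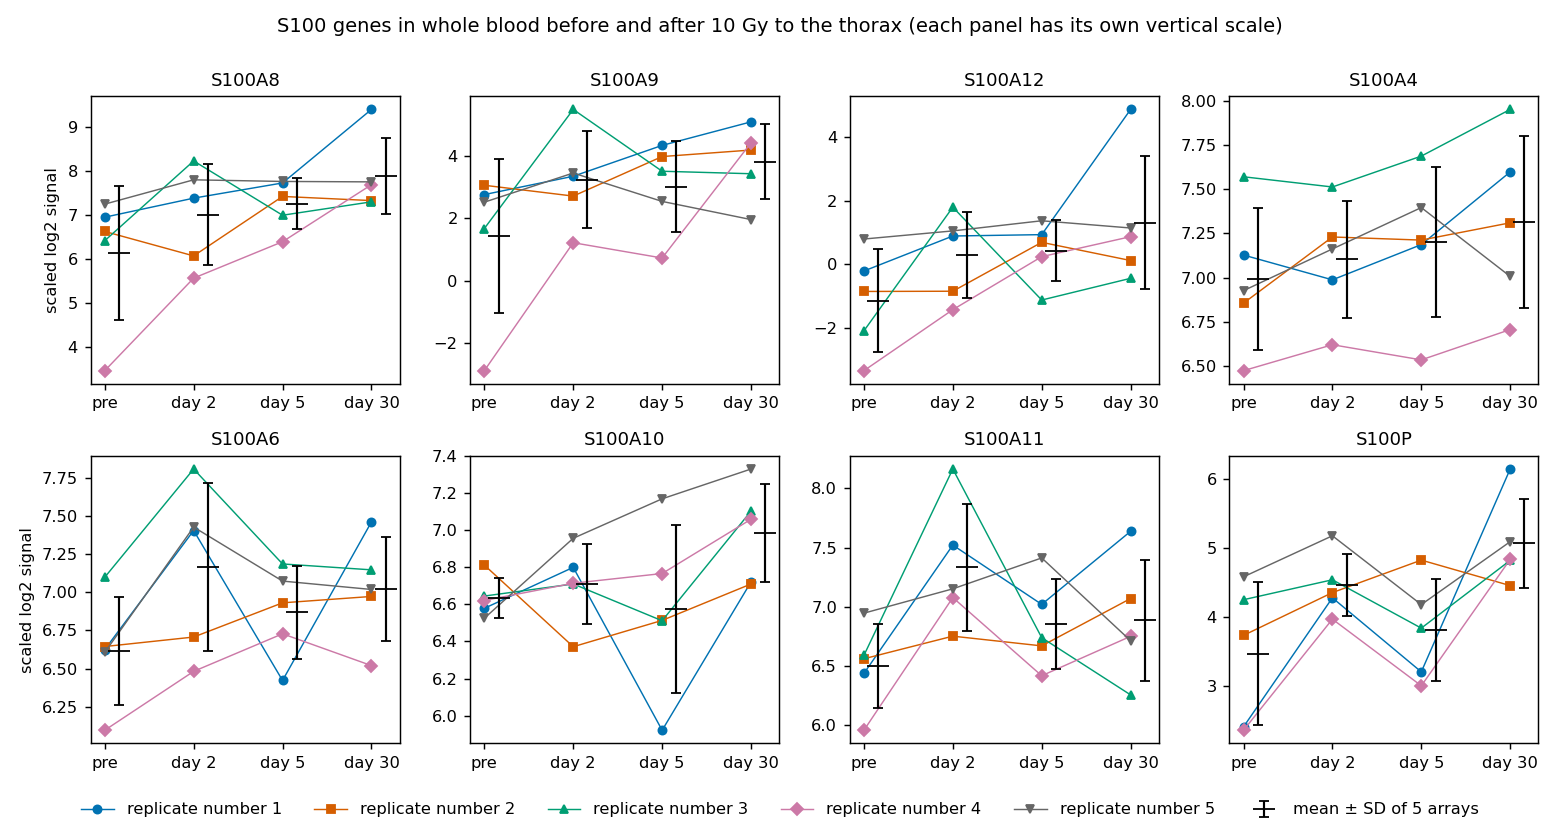
Scaled log2 signal (vertical axis, 1 scale per panel) of the 8 S100 genes in the 4 groups (horizontal axis), with 1 coloured line per replicate number and the mean ± SD of the 5 arrays in black. Replicate number 4 started lowest for S100A8, S100A9 and S100A12 (3.47, -2.90 and -3.33 before irradiation), and replicate number 1 ended highest for S100A8, S100A12 and S100P on day 30 (9.39, 4.86 and 6.14).

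S100A8, the calprotectin subunit also called calgranulin A, read 6.95, 6.62, 6.41, 3.47 and 7.24 before irradiation (scaled log2 signal, replicate numbers 1 to 5). On day 2 the values were 7.38, 6.07, 8.22, 5.57 and 7.79, and on day 5 they were 7.72, 7.42, 6.99, 6.39 and 7.76. On day 30 they were 9.39, 7.32, 7.29, 7.68 and 7.75. All 5 day 30 arrays thus lay above all 5 pre-irradiation arrays, the only one of the 8 genes with separate groups in any of these comparisons. Separate groups with the later one higher were found for 0.581% of all probes on day 2, 0.311% on day 5 and 1.09% on day 30. S100A8 was higher by 0.87 ± 0.37 on day 2 (log2 change ± SE, n = 5 pairs, 4 of them higher, limma unadjusted p = 0.047, adjusted p = 0.33). The change was 1.12 ± 0.35 on day 5 (5 of 5 pairs, adjusted p = 0.35) and 1.75 ± 0.51 on day 30, a 3.36-fold higher level (5 of 5 pairs, adjusted p = 0.17). Without replicate number 4 these were 0.56, 0.66 and 1.13, and the day 2 change no longer passed without number 1, 3, 4 or 5 (0.97, 0.63, 0.56 and 0.94).

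S100A9, the partner subunit or calgranulin B, read 2.76, 3.06, 1.67, -2.90 and 2.52 before irradiation. It read 3.35, 2.72, 5.50, 1.22 and 3.46 on day 2, and 4.35, 3.99, 3.51, 0.73 and 2.54 on day 5. On day 30 the values were 5.10, 4.20, 3.43, 4.43 and 1.96. The pre-irradiation array of replicate number 4 lay far below every other array for this gene, and replicate number 5 was lower on day 30 than before irradiation. The changes were 1.82 ± 0.65 on day 2 (4 of 5 pairs higher, limma adjusted p = 0.27), 1.60 ± 0.45 on day 5 (5 of 5, adjusted p = 0.33) and 2.40 ± 0.92 on day 30, a 5.28-fold higher level (4 of 5, adjusted p = 0.24). Without replicate number 4 they were 1.25, 1.09 and 1.17. The day 2 change did not pass without number 3 (1.32) or 4, nor the day 30 change without number 1 (2.42). On day 30 it was 3.14 without number 5.

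S100A12, or calgranulin C, read -0.21, -0.85, -2.08, -3.33 and 0.80 before irradiation with its brighter probe. On day 2 it read 0.89, -0.84, 1.80, -1.42 and 1.05, and on day 5 it read 0.94, 0.69, -1.12, 0.24 and 1.37. On day 30 the values were 4.86, 0.12, -0.44, 0.87 and 1.14. It was higher in 5 of 5 pairs on each day, although by only 0.0072 in replicate number 2 on day 2, with replicate number 1 far above the other 4 on day 30. The changes were 1.43 ± 0.51, 1.56 ± 0.40 and 2.45 ± 0.66 on days 2, 5 and 30 (adjusted p = 0.27, 0.31 and 0.16 by limma), the last a 5.46-fold higher level. On day 2 the change was 0.82 without replicate number 3, and it did not pass without number 4 (1.31). On day 30 it was 1.79 without number 1. The second probe, printed above, gave 1.53, 1.71 and 2.62, with 4 of 5 pairs higher on day 2 (-0.14 in replicate number 2), and both probes ran almost in parallel over the 20 arrays (r = 0.996).

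**Figure D2:**
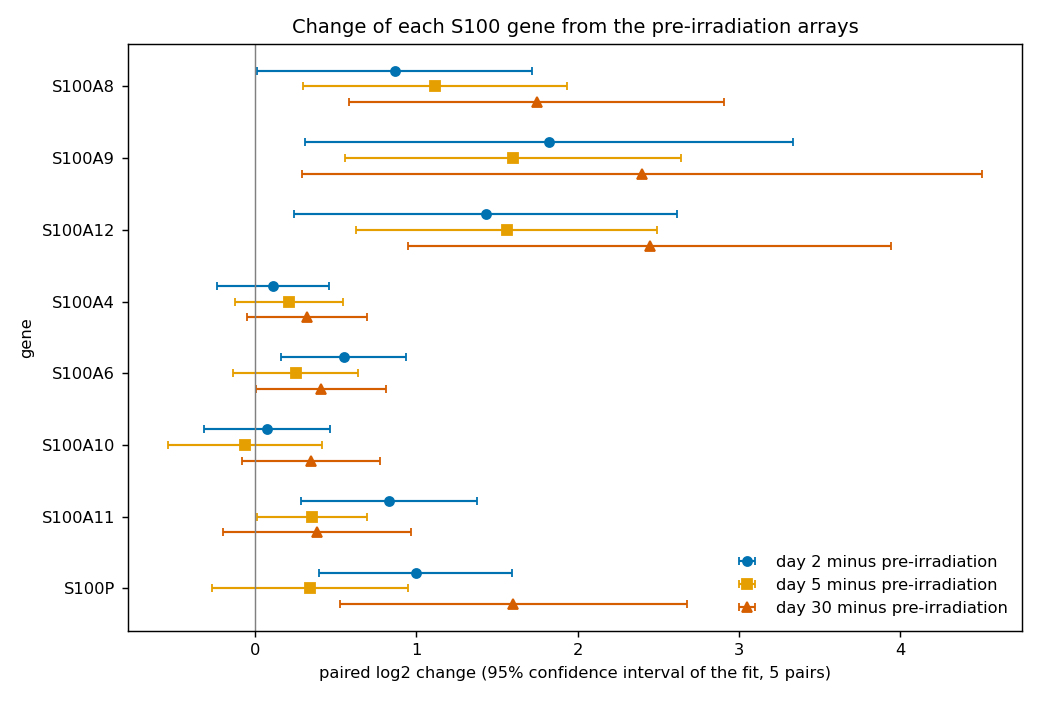
Paired log2 change from pre-irradiation (horizontal axis) of each S100 gene (vertical axis) on days 2, 5 and 30, with the 95% confidence interval of the fit over 5 pairs. The intervals of S100A8, S100A9 and S100A12 lie above 0 on every day (the lowest bound is 0.01, for S100A8 on day 2), while those of S100A4 and S100A10 include 0 throughout.

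Sizes differed widely between pairs. The median change of the 3 calgranulins on day 30 was 2.44, 0.97, 1.65, 4.21 and 0.35 in replicate numbers 1 to 5, and on day 2 it was 0.59, -0.35, 3.83, 2.10 and 0.55. Replicate number 3 thus had its largest calgranulin difference on day 2, whereas numbers 1 and 4 had theirs on day 30. The order of days was not shared by the replicate numbers, and no calgranulin was past the unadjusted threshold between any pair of later days.

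**Figure D3:**
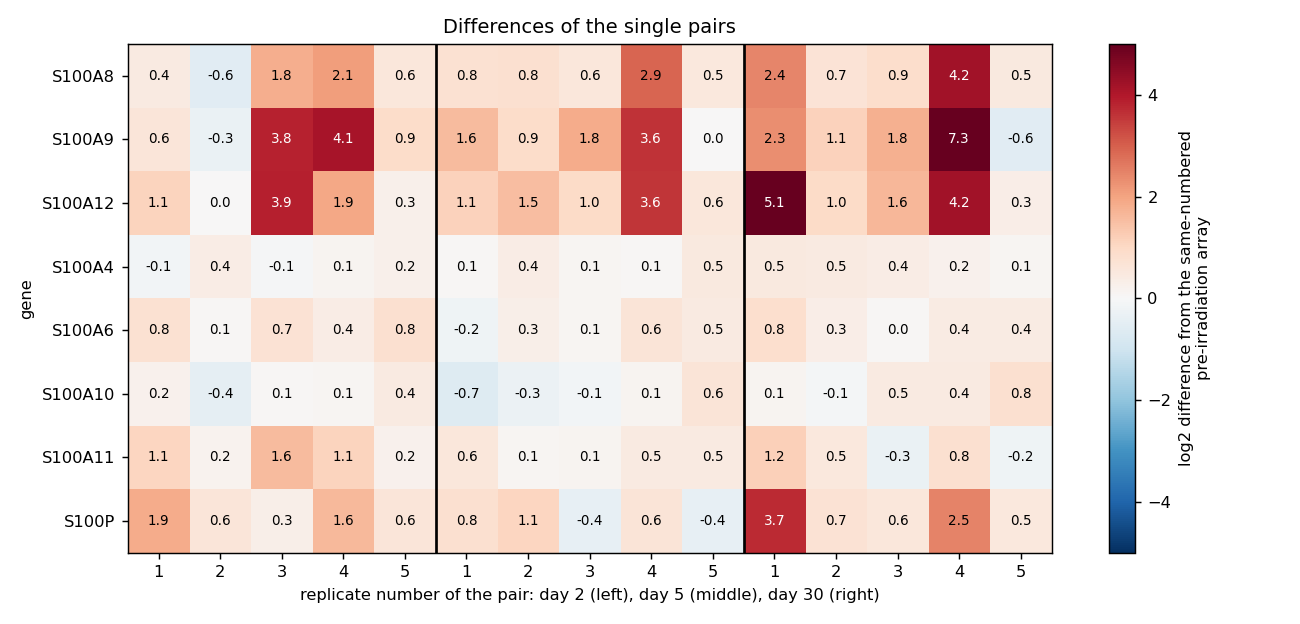
Log2 difference of each S100 gene (rows) from the same-numbered pre-irradiation array, for each replicate number (columns) on days 2, 5 and 30. The colour scale ends at 5 in either direction, and the largest cells are S100A9 in replicate number 4 on day 30 (7.3) and S100A12 in number 1 on day 30 (5.1).

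S100A11, a more broadly expressed member and a partner of annexin A1, read 6.44, 6.56, 6.59, 5.96 and 6.95 before irradiation and 7.52, 6.75, 8.16, 7.08 and 7.15 on day 2. It was higher in 5 of 5 pairs on day 2, by 0.83 ± 0.24 (limma unadjusted p = 0.0078, adjusted p = 0.21), although the ranges overlapped. On day 5 it read 7.02, 6.67, 6.74, 6.42 and 7.41, a change of 0.35 ± 0.15 (unadjusted p = 0.045 by limma, 5 of 5 pairs) that no longer passed when any 1 of the 5 replicate numbers was left out (0.30 to 0.41). On day 30 the arrays spanned 6.26 to 7.64 and the change was 0.39 ± 0.25, with 3 of 5 pairs higher (limma adjusted p = 0.46). Its other probe gave 0.94, 0.44 and 0.48 on the 3 days and tracked the first over the arrays (r = 0.99).

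S100A6, or calcyclin, a calcium sensor of dividing cells, read 6.63, 6.64, 7.10, 6.10 and 6.61 before irradiation and 7.40, 6.71, 7.81, 6.48 and 7.43 on day 2. The change was 0.55 ± 0.17 on day 2 with 5 of 5 pairs higher (limma unadjusted p = 0.012, adjusted p = 0.22). On day 30 the values were 7.46, 6.97, 7.15, 6.52 and 7.02, higher in 5 of 5 pairs by 0.41 ± 0.18 (limma unadjusted p = 0.048), a change that did not pass without number 1, 2, 4 or 5 (0.30, 0.43, 0.41 and 0.41). Day 5 gave 0.25 ± 0.17 and did not pass.

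S100A4, a motility protein that binds non-muscle myosin, did not pass on any day in the limma fit. By the methods' paired t-test it passed on day 30. Its arrays spanned 6.48 to 7.57 before irradiation, 6.62 to 7.51 on day 2, 6.54 to 7.69 on day 5 and 6.71 to 7.95 on day 30. The changes were 0.11, 0.21 and 0.32, with 95% intervals of -0.23 to 0.46, -0.12 to 0.55 and -0.05 to 0.69. Differences between replicate numbers, which the pairing takes out, were larger than these. Replicate number 3 was the highest and number 4 the lowest in all 4 groups.

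S100A10, which has lost calcium binding and carries annexin A2 to the membrane, was the least variable gene before irradiation, at 6.53 to 6.81. It spanned 6.37 to 6.96 on day 2, 5.92 to 7.17 on day 5 and 6.71 to 7.33 on day 30. The changes were 0.07, -0.06 and 0.35, with 95% intervals of -0.32 to 0.46, -0.54 to 0.42 and -0.08 to 0.78. These intervals leave out a change as large as that of S100A12 on any of the 3 days, but the difference between the genes was not tested.

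S100P, a family member outside the chromosome 1 group that is found in placenta and myeloid cells and binds ezrin, read 2.41, 3.73, 4.25, 2.36 and 4.58 before irradiation and 4.28, 4.35, 4.54, 3.97 and 5.18 on day 2. On day 5 it read 3.20, 4.82, 3.84, 3.002 and 4.18, and on day 30 it read 6.14, 4.45, 4.82, 4.83 and 5.09. All 5 pairs were higher on day 2 (0.997 ± 0.259, limma unadjusted p = 0.0050, adjusted p = 0.19) and on day 30 (1.60 ± 0.47, 3.04-fold, adjusted p = 0.17). On day 5 only 3 of 5 were, and the change of 0.34 ± 0.26 did not pass.

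Between the later days, S100P alone among the 8 genes passed. It was lower on day 5 than on day 2 by a log2 change of -0.65 ± 0.25 (4 of 5 pairs lower, limma unadjusted p = 0.032, adjusted p = 0.99), and higher on day 30 than on day 5 by 1.26 ± 0.41 (4 of 5 pairs, unadjusted p = 0.015, adjusted p = 0.59). That is 1 of 8 genes in each of these comparisons, where 3.47% and 8.31% of all probes passed in either direction. From day 2 to day 30 none of the 8 passed, against 13% of probes, and the methods' paired t-test passed 1. Replicate number 2 went the other way from the other 4 in both S100P comparisons. The day 5 against day 2 change of S100P did not pass without number 1, 3, 4 or 5 (-0.55, -0.64, -0.58 and -0.57). Its day 30 against day 5 change did not pass without number 4 (1.12), and was 0.84 without number 1.

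The slide gave a second grouping of the same arrays. Arrays on a slide mostly carried different replicate numbers, so this grouping does not keep the pairing. Within slides, S100A8 was higher than pre-irradiation on 3, 4 and 5 of 5 slides on days 2, 5 and 30, S100A9 on 4, 4 and 5, S100A12 on 4, 4 and 4, and S100P on 4, 3 and 5. With the slide as a block in place of the replicate number, 2, 0 and 3 of the 8 genes passed, those on day 30 being S100A8, S100A9 and S100P (unadjusted p = 0.022, 0.0033 and 0.0020 by limma). Without any replicate block, 2, 1 and 4 genes passed, without replicate number 4 the day 2 count was 3, and without number 1 the day 30 count was 3. No share of all probes is given here for these counts.

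**Figure D4:**
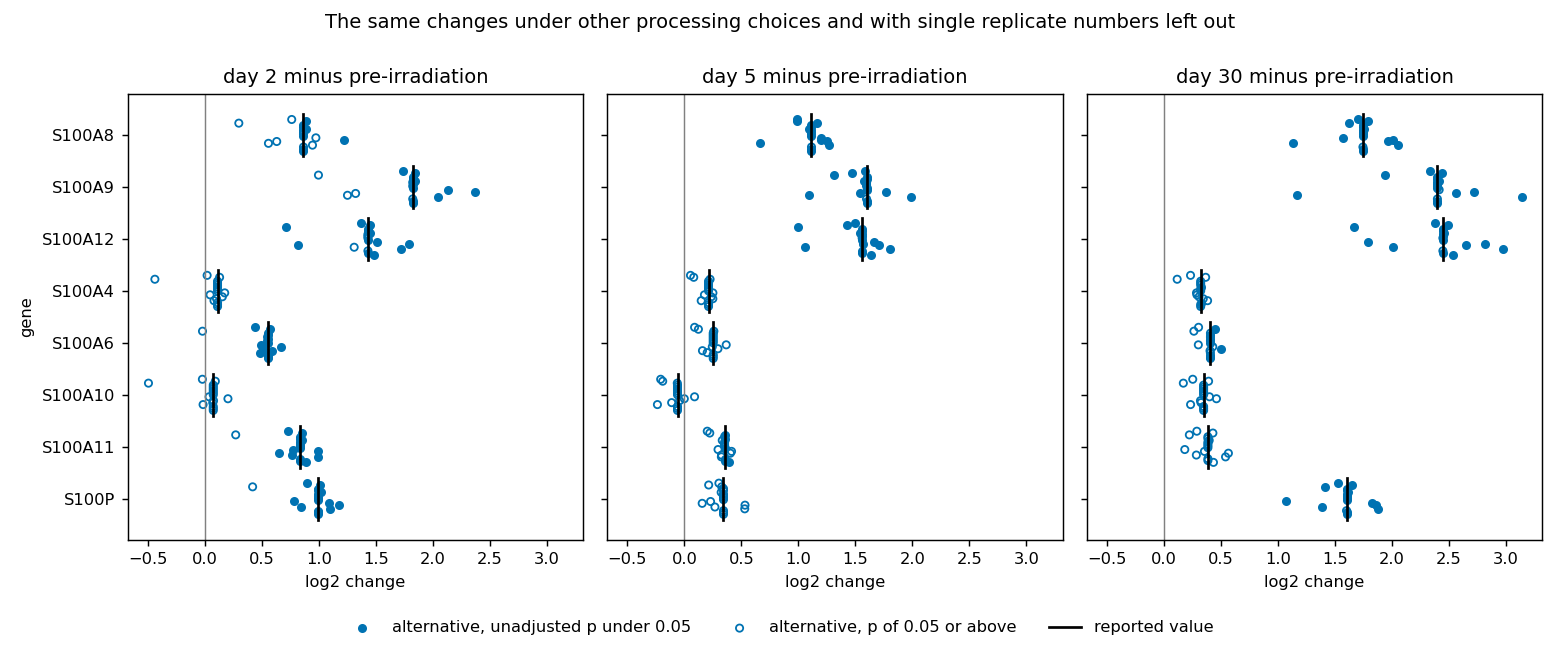
Log2 change from pre-irradiation (horizontal axis) of each S100 gene (vertical axis) on days 2, 5 and 30, with the reported value as a black bar and 1 circle for each alternative processing choice or replicate number left out, filled where the unadjusted p was under 0.05. The changes of S100A8, S100A9, S100A12 and S100P lie right of 0 in every setting, and those of S100A10 lie on both sides of it on days 2 and 5.

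The 8 genes did not vary as one block. Over the 20 arrays, which share animals and slides, Pearson's r was 0.88 between S100A8 and S100A9, 0.90 between S100A8 and S100A12 and 0.70 between S100A9 and S100A12. With the group means removed, that is between arrays of the same day, it was 0.85, 0.86 and 0.60. S100A10 had r between -0.06 and 0.40 with the other 7. Among 15913 other genes, those most like S100A8 were TLR6, a partner of TLR2, the unnamed transcript THC2591638 and LST1 (r = 0.94, 0.94 and 0.92). S100A12 was most like the same unnamed transcript, GCA, the calcium-binding grancalcin of neutrophils, and CHMP3 (r = 0.95, 0.93 and 0.93).

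For S100A9 the nearest were S100A8, CFD (complement factor D) and LOC283911 (r = 0.88, 0.86 and 0.85). For S100P they were AOAH, which breaks down endotoxin, PLA2G7 and the monocyte scavenger receptor CD163 (r = 0.85, 0.84 and 0.83). S100A11 was nearest to an unnamed transcript, MSRB1 and B3GNT8 (r = 0.97, 0.96 and 0.92). S100A6 was nearest to TMBIM4, CEBPB and MOB1A (r = 0.88, 0.88 and 0.87). S100A4 was nearest to SULT1A2, RETN and ALDH1A1 (r = 0.89, 0.88 and 0.87), and S100A10 to FAM13A, TLR7 and DPM1 (r = 0.85, 0.84 and 0.84).

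Of 12 other S100 genes, 7 were measured, and S100A7A, S100A14, S100B, S100G and S100Z were not well above background. One of the 7 was past the unadjusted threshold and higher on each day, and 1, 1 and 2 were lower on days 2, 5 and 30. The lower one on every day was S100A5, whose gene stands between those of S100A4 and S100A6. It read 2.30, 1.42, 2.82, 2.14 and 1.92 before irradiation and 1.05, 0.99, 1.80, 0.84 and 0.46 on day 30, lower in 5 of 5 pairs by a log2 change of -1.09 ± 0.20 (limma adjusted p = 0.13). The change was -0.80 on day 2 and -0.75 on day 5. S100A1 was the other lower gene on day 30 (-0.61). S100A2 was the higher one on days 2 and 30 (0.66 on both), and S100A3 on day 5 (0.51).

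Of 16 receptors and binding partners of S100 proteins, 13 were measured. On day 2, 4 were past the threshold and higher and 1 lower, on day 5 it was 4 and 0, and on day 30 it was 5 and 1. TLR4, the receptor of calprotectin, and its co-receptors LY96 (MD-2) and CD14 were higher on all 3 days. LY96 had the largest differences in the list, 1.18, 1.84 and 1.86 on days 2, 5 and 30, higher in 5 of 5 pairs each time (limma adjusted p = 0.11, 0.28 and 0.13). TLR4 gave 0.96, 0.49 and 1.06. ALCAM, an adhesion molecule reported to bind S100B, gave 0.78, 0.47 and 0.68. AGER (RAGE) did not pass (0.14, 0.33 and -0.17), nor did the S100A10 partner ANXA2 (0.19, 0.13 and 0.13). The S100A11 partner ANXA1 passed on day 30 only (0.76), and BSG, a receptor of S100A9, was lower there (-0.87). Replicate number 3 went the other way for BSG (4.73 before irradiation, 5.28 on day 30). CACYBP, which binds S100A6, was lower on day 2 (-0.52, 5 of 5 pairs).

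All 8 transcription factors of the myeloid list were measured, and 3, 1 and 4 were past the threshold and higher on days 2, 5 and 30, with none lower. CEBPA, which drives granulocyte formation, passed on each day (0.80, 0.59 and 0.98, higher in 5 of 5 pairs). In replicate number 3, however, CEBPA read 3.295 before irradiation, 3.298 on day 5 and 3.35 on day 30. The largest day 30 difference was in number 1 (2.65 before irradiation, 5.04 on day 30). CEBPB passed on days 2 and 30 (0.82 and 0.68), SPI1 (PU.1) on day 2 (0.55), and CEBPE, of late granulocytes, and HIF1A on day 30 (1.19 and 1.02). The CEBPE change was largest in replicate number 1 (-0.55 before irradiation, 3.22 on day 30). It was not higher in number 3 (0.068 and -0.0033). Of 9 neighbours of the S100 genes on chromosome 1 that had a probe, 4 were well above background and none passed against pre-irradiation in either direction on any day, with median changes of -0.20, -0.21 and 0.06.

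Markers of blood cells moved on the same arrays, and in whole blood more cells of a type and more RNA per cell cannot be told apart. Of 8 neutrophil markers measured, 6, 6 and 4 were past the unadjusted threshold and higher on days 2, 5 and 30, with none lower. Their mean scaled log2 signal spanned 0.94 to 2.45 before irradiation, 1.67 to 3.14 on day 2, 1.69 to 2.88 on day 5 and 1.45 to 3.42 on day 30, lowest in replicate number 4 before irradiation and highest in number 1 on day 30. Of 7 monocyte markers, 5, 2 and 5 were higher, and their mean signal spanned 2.18 to 3.43, 3.21 to 4.02, 2.31 to 3.81 and 3.18 to 4.21 in the 4 groups. Of 6 measured granule genes of immature neutrophils, 3, 4 and 2 were past the threshold and higher. The median change of the 6 was 0.83, 0.77 and 0.98 on days 2, 5 and 30. The iron-binding protein LCN2 was above these medians, at 1.90, 1.35 and 2.59, but its probe was well above background on only 15 arrays. In replicate number 2, LCN2 read -2.98 before irradiation and -4.06 on day 2, while the other replicate numbers were higher on day 2. ELANE, DEFA4 and MMP8 of that list were not well above background, and FCGR3B of the neutrophil list was not named on the array.

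Other lineages went down or followed another course. Of 7 T cell markers, 5, 2 and 3 were past the threshold and lower on days 2, 5 and 30, of 6 NK cell markers 6, 4 and 0, and of 5 measured B cell markers 4, 4 and 3. The share of all probes past the threshold and lower is not given here for any of these days. The 6 platelet markers were all higher on day 2, 2 of them on day 5 and none on day 30, when 1 was lower. Of 6 erythroid markers none passed on days 2 and 5 and 2 were lower on day 30, and of 4 measured eosinophil and basophil markers 1 was higher on day 5 and none passed otherwise. Of the skin keratin list, a check for epithelial cells from the needle site, KRT1, KRT5, KRT14 and LOR were not well above background and the other 2 genes did not pass. The part of cell make-up in the S100 changes was not tested.

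**Figure D5:**
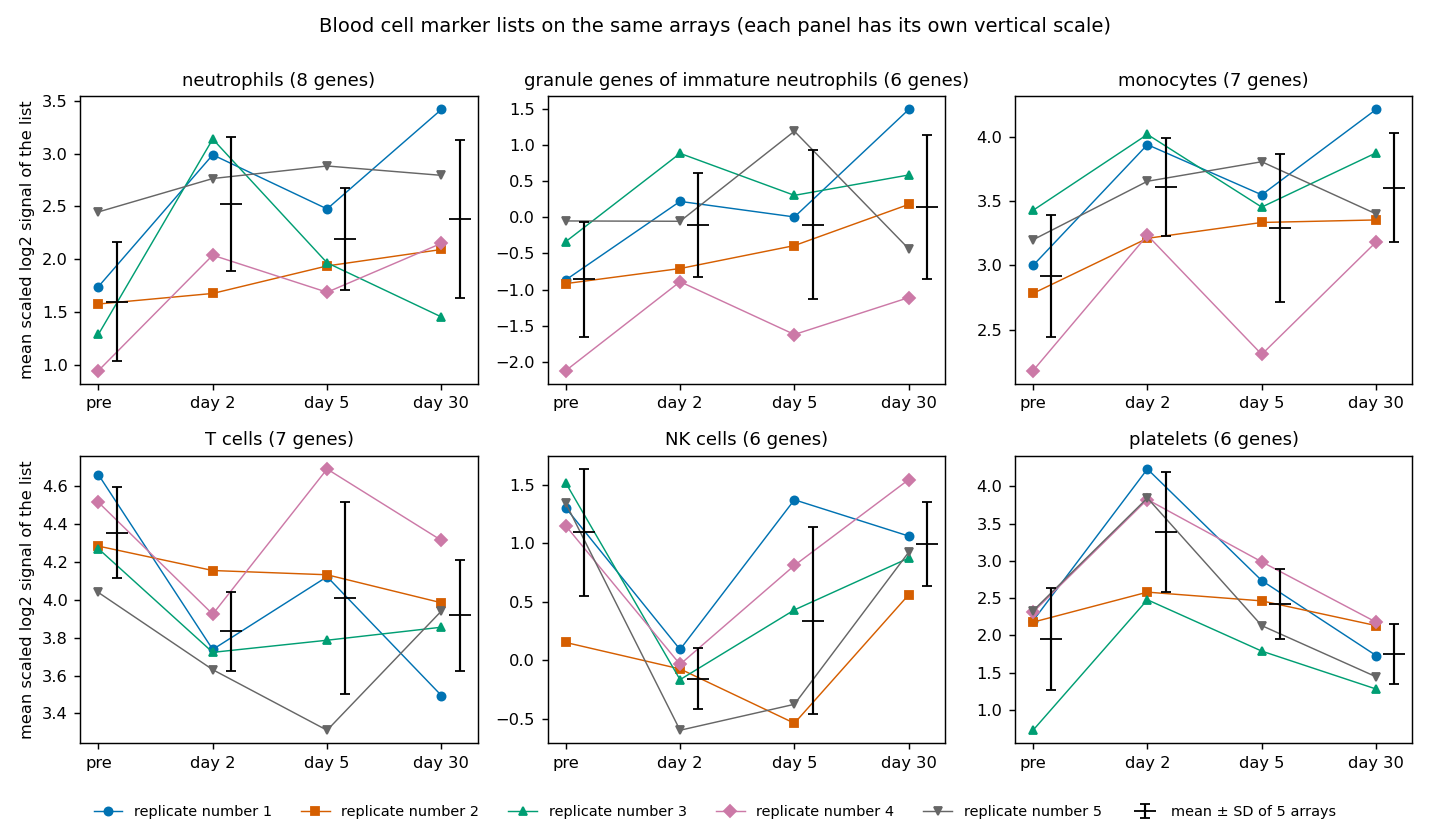
Mean scaled log2 signal (vertical axis, 1 scale per panel) of 6 marker lists in the 4 groups (horizontal axis), with 1 line per replicate number and the mean ± SD of the 5 arrays in black. Replicate number 4 is lowest before irradiation in the neutrophil, granule and monocyte lists (0.94, -2.12 and 2.18), as it is for the 3 calgranulins.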

How the data were processed

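RNA from whole blood (PAXgene tubes, globin transcripts depleted) was hybridised by the authors to 1-colour human whole-genome arrays, 5 per group. The deposited scanner files hold intensities from Agilent Feature Extraction (version 10.7 in the submitters' processing notes, 12.0.2.2 in the file headers). The authors also deposited a table of log2 values for 5884 probes, used as an alternative. It holds 7 of the S100 probes, for 5 genes.

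Here, control and outlier spots were left out, spots of a probe averaged, log2 processed intensities centred on the array's 75th percentile, and 19961 of 34127 probes kept. Changes were fitted with limma 3.58.1 (R 4.3.3) for each comparison, blocked by replicate number, and p-values adjusted by Benjamini-Hochberg over all probes kept. The fit was tested on simulated data. The brightest probe stood for a gene. Nothing in the labels says that a number marks 1 animal. Over probes kept, deviations of same-numbered arrays correlated at a median of 0.28 (from -0.16 to 0.65) and of differently numbered ones at -0.07. The SE and p-values of the fit rest on the spread between these 5 pairs, drawn towards a value common to all probes kept. They are therefore not the spread of the 5 pairs alone, which the methods' paired t-test uses.

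The S100 genes, the other lists and the rule for naming genes (all members, list genes past an unadjusted p of 0.05, and the 3 most alike genes) were chosen with earlier results of these data known. Depth does not apply to arrays, and their number limits the precision.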

Additional observations from a re-analysis of the deposited data

Results flagged for a closer look

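Of 32 groups of 5 arrays (8 genes in 4 groups), 3 held an array whose distance to its nearest neighbour took up more of the group's range than Dixon's 95% value of 0.71 allows, where chance flags about 1 in 20 groups. S100A8 and S100A9 were low on the pre-irradiation array of replicate number 4, at scaled log2 signals of 3.47 and -2.90 (gaps of 0.780 and 0.767 of the range). S100A8 was high on the day 30 array of replicate number 1, at 9.39 (0.784). Without number 1 the day 30 change of S100A8 was 1.57.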

How the results depend on the processing

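Of 17 changes past an unadjusted p of 0.05, each kept its direction under every alternative run that holds the gene, except S100A6 on day 2 after normexp background correction (-0.020). Changes that did not pass turned sign there for S100A4 (-0.44) and S100A10 (-0.49) on day 2, and for S100A10 also with quantile normalization (-0.021). With 1 replicate number left out S100A10 ran from -0.015 to 0.20 on day 2 and from -0.24 to 0.090 on day 5. The counts of genes past the threshold against pre-irradiation (6, 4 and 5 of 8 on days 2, 5 and 30) were 2 and 1 on days 2 and 5 without the replicate block, 2, 0 and 3 with the slide as a block, and 3, 2 and 2 by the methods' paired t-test. At an unadjusted p under 0.005 they were 1, 1 and 0, the day 2 count after normexp was 1, and the day 5 count with all 20 arrays in one fit was 2. Leaving out 1 replicate number gave 3 to 6, 3 and 3 to 5 genes. Between later days the counts (1, 0 and 1 for day 5 against 2, day 30 against 2 and day 30 against 5) ranged from 0 to 2 in each with 1 number left out. Day 5 against day 2 gave 0 after quantile normalization, normexp, without the block, in the 20-array fit, by the methods' paired t-test and at 0.005, and 2 with the slide block. Day 30 against day 2 gave 3 after normexp and 1 by the methods' paired t-test. Day 30 against day 5 gave 3 after quantile normalization, median scaling, the filter on all 20 arrays or an intensity trend, 2 after normexp or in the 20-array fit, and 0 at 0.005. The median change was 0.28 on day 2 after normexp, and 1.10 and 1.76 on days 5 and 30 in the deposited log2 values, which hold only 5 of the 8 genes. The causes were not tested, and the share of all probes passing under each alternative is not given here. Signal over local background had a median of 1.68 to 2.46 per array.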
